A study of Mus musculus with 16 samples.

Results

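The genes described here were those of the APP secretases and of the APP-like proteins, followed across WT and 3xTg hippocampus with and without an inhibitor of stearoyl-CoA desaturase (SCD). They were taken by gene symbol: Bace1, Bace2, Adam10, Adam17, Psen2, Ncstn, Aph1a, Psenen, Aplp1 and Aplp2, which are 10 of the 55335 genes in the count table. All 10 passed the filter on low counts and were among the 16475 genes tested.

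The amyloid precursor protein (APP) is a membrane protein of neurons that is cut in steps. An α-secretase, chiefly ADAM10 with ADAM17 as a second enzyme, cuts inside the amyloid-β stretch, whereas the β-secretase BACE1 cuts at its start and so begins the amyloidogenic route. The stub left by either cut is released by γ-secretase, a complex of a presenilin, nicastrin, APH1 and PEN-2. The same enzymes also process APLP1 and APLP2, the APP homologs, along with Notch and many adhesion proteins of the synapse.

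Whole-hippocampus RNA was sequenced from 16 female mice in 4 groups of 4. WT-D and WT-S mice were of the C57BL/6J x 129S1 background, and 3xTg-D and 3xTg-S mice were of the 3xTg model of Alzheimer's disease. In that model a neuronal Thy1.2 element drives transgenes for human mutant APP and tau. All mice were 10 months old at collection and had a 28 day infusion into the lateral ventricle, of 80 µM of the SCD inhibitor CAY10566 in the S groups or of 0.8% DMSO vehicle in the D groups. Each sample was taken as 1 mouse, and mice are numbered 1 to 4 within a group as in the sample names. In whole tissue, fewer cells of a type and less RNA per cell cannot be told apart.

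Reads assigned to genes numbered 15413385 to 23590149 per mouse, with a median of 19327524. Thy1, whose regulatory element drives the transgenes, stood at 517 to 625 CPM (the gene's reads scaled to a common library size) in the 8 WT mice and at 1566 to 2141 CPM in the 8 3xTg mice, so every mouse matched its genotype label by this gene. Hippocampal markers (Prox1, Wfs1, Neurod6 and Zbtb20) were read in every mouse, with a summed level of 657 to 1022 CPM. Choroid plexus markers set WT-D mouse 4 (a summed 720.5 CPM) and WT-S mouse 1 (286 CPM) apart from the other mice, at 26.9 to 60.0 CPM, and values without these mice are given where they touch a result. Of the other marker lists, neuronal genes summed to 4340 to 5571 CPM, microglial genes to 195 to 397 CPM, oligodendrocyte precursor genes to 123 to 153 CPM and endothelial genes to 108 to 178 CPM.

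In GRCm38 coordinates of the GENCODE annotation, Bace1 lies at chr9:45838580-45864399 on the + strand and Bace2 at chr16:97356742-97442936 (+). The α-secretase genes lie at chr9:70678997-70780229 (Adam10, +) and chr12:21323509-21373632 (Adam17, -). The γ-secretase genes lie at chr1:180227004-180263438 (Psen2, -), chr1:172066013-172082795 (Ncstn, -), chr3:95893969-95898288 (Aph1a, +) and chr7:30561863-30563627 (Psenen, -). Aplp1 lies at chr7:30434982-30445535 (-) and Aplp2 at chr9:31149557-31211815 (-). Reads were counted over exons of the whole gene, and 5 of the 10 genes share exon bases with a gene of the other strand. The shared part was 32.5% of Bace1 (Rnf214, Gm16536 and Gm49338), 12.9% of Aph1a (Car14), 9.33% of Psenen (U2af1l4 and Gm49396), 4.91% of Ncstn (Copa) and 4.35% of Adam17 (Iah1). Whether the counting used strand is not given in the sources used here, so values of these 5 genes may include or lose reads at those bases.

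The 250 bases upstream of the start site are shown for Aplp1 and Aph1a, which had the highest and the lowest level per length among the 8 genes with an entry in the promoter table (RefSeq, GRCm38.p6). Capitals mark CG dinucleotides, the site of cytosine methylation, and both runs read 5′ to 3′ on the strand of the gene, from chr7:30445583-30445832 (-) and chr3:95893671-95893920 (+).
Aplp1: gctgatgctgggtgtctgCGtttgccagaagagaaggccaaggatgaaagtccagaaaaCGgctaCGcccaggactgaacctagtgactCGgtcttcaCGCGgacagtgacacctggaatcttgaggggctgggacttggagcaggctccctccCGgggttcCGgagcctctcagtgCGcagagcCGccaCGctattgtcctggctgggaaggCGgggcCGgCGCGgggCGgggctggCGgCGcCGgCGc
Aph1a: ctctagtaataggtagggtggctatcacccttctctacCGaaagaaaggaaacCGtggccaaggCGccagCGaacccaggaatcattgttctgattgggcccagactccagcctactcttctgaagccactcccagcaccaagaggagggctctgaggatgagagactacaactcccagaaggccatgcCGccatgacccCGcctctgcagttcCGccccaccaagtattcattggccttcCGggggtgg
The Aplp1 stretch held 20 CG and the Aph1a stretch 8, beside a median of 6 over the 32851 promoters taken for comparison. These left out a chromosome of the table. All 10 start sites listed for the 8 genes were above that median, from 7 at one of the Psen2 starts to 29 at Adam10. The letters TATAAA were found on neither strand at any of the 10 starts, and 12.4% of the 32851 promoters held them. Bace1 and Bace2 had no entry.

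Per exon length, the levels spanned a wide range and kept the same order in all 4 groups. Mean RPKM (CPM per kilobase of exon) over the 16 mice were 274 for Aplp1 (range 241 to 315) and 83.6 for Aplp2 (73.8 to 90.2), ahead of every secretase. Adam10 followed at 27.2 RPKM (25.2 to 32.4), Bace1 at 16.5 (15.2 to 18.1) and Ncstn at 12.3 (10.3 to 13.2). Psenen at 3.89 RPKM, Adam17 at 3.05 and Psen2 at 2.49 formed a lower tier, in which the mice of neighbouring genes overlapped. Aph1a stood at 1.41 RPKM (1.16 to 1.69) and Bace2 was last at 0.412 RPKM (0.169 to 0.755). By exon length every other pair of neighbours was separated in all 16 mice. With the longest transcript as the length, Adam17 and Psen2 changed places (4.88 and 5.33 RPKM), and Bace1 (15.98 to 18.9 RPKM) and Ncstn (13.6 to 17.5 RPKM) overlapped.

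**Figure D1:**
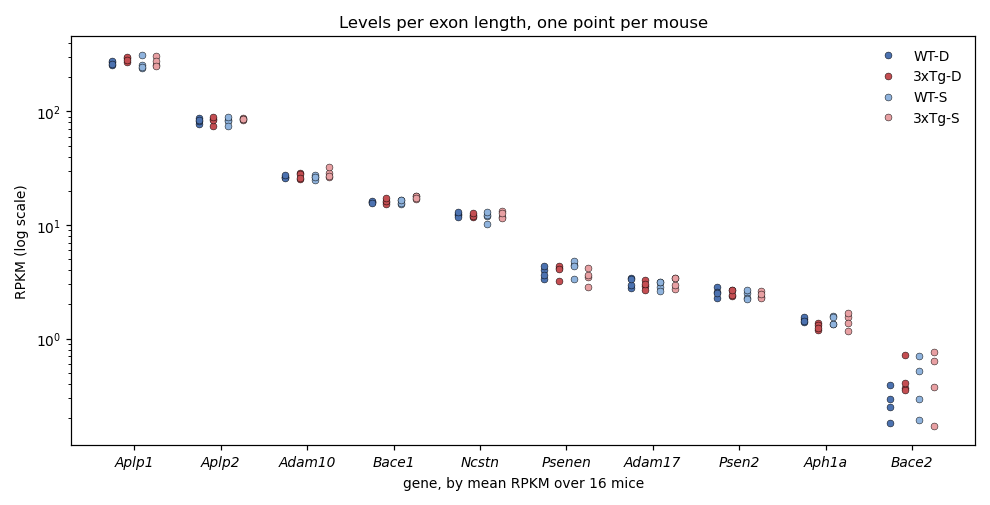
RPKM (log scale) of the 10 genes, ordered by their mean over 16 mice, with 1 point per mouse coloured by group. Aplp1 (241 to 315 RPKM) and Aplp2 (73.8 to 90.2) lie above the secretase genes, Bace2 (0.169 to 0.755) lies lowest with the widest scatter, and the ranges of Psenen, Adam17 and Psen2 overlap in sequence.

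In the pairs of α-secretase and β-secretase genes 1 gene carried most of the reads. Adam10 exceeded Adam17 by 8.98-fold per length (SD 1.02, n = 16 mice), and Bace1 exceeded Bace2 by 22.2-fold to 107-fold across mice. Aph1b, the mouse paralog of Aph1a, stood at 10.1 RPKM and Aph1c at 1.77. Aph1b and Aph1c are nearly identical in sequence, so their split is uncertain.

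A gene was called changed at an unadjusted p of 0.01 or less in edgeR's two-sided quasi-likelihood test, the level the study used, and p-values adjusted by the Benjamini-Hochberg method over all 16475 genes are given beside it. None of the 10 genes was called in any comparison, by edgeR or by DESeq2. Between 3xTg-D and WT-D 0 of 10 were called, where 4.86% of all tested genes were. There 1 of the 10 (Bace2) had an unadjusted p under 0.05, as did 2077 of the 16475 tested genes. With the inhibitor, 0 of 10 were called in 3xTg mice (3xTg-S vs 3xTg-D, 0.904% of all genes) and 0 of 10 in WT mice (WT-S vs WT-D, 0.2%, or 0.704% with the replicate number as a block). None of the 10 had a p under 0.05 in these comparisons, where 1043 and 372 of all tested genes did. Calls were also 0 of 10 for 3xTg-S vs WT-S (4.3% of all genes), for 3xTg-S vs WT-D (5.84%) and for the difference of the inhibitor effect between genotypes (0.595%). In 3xTg-S vs WT-D Bace1 had a p under 0.05, as did 2296 of all tested genes. Single mice moved the shares over all genes. With a mouse left out, that of WT-S vs WT-D ranged from 0.14% to 3.17% (without WT-S mouse 4) and that of 3xTg-S vs 3xTg-D from 0.413% (without 3xTg-S mouse 4) to 4.59% (without 3xTg-S mouse 2), with 0 of the 10 genes called in each of these fits. The share for the difference between genotypes ranged from 0.34% to 2.96% (without 3xTg-S mouse 2) and was 2.31% without WT-S mouse 4, again with 0 of 10 called. DESeq2 gave an unadjusted p under 0.05 for the same single genes, Bace2 in 3xTg-D vs WT-D (adjusted p = 0.317) and Bace1 in 3xTg-S vs WT-D (adjusted p = 0.237). At an adjusted p of 0.05 or less edgeR also called 0 of 10 throughout, where it called 1.88% of all genes in 3xTg-D vs WT-D, 1.41% in 3xTg-S vs WT-S, 1.66% in 3xTg-S vs WT-D and none in the other 3 tests.

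A count of 0 of 10 is near the shares over all genes, which were 0.2% to 5.84%. The largest differences in size were those of Bace2. Bace2 differed by 0.71 log2 in 3xTg-D vs WT-D, 0.60 in WT-S vs WT-D and 0.77 in 3xTg-S vs WT-D, with wide intervals. Its inhibitor effect differed between the genotypes by -0.54. Psenen came next, at -0.32 (SE 0.21) in the difference between genotypes and -0.26 in 3xTg-S vs WT-S. Over all tested genes the median absolute differences there were 0.15 and 0.12. Aph1a differed by -0.19 in 3xTg-D vs WT-D. The median absolute log2 difference of the 10 genes was 0.04 in 3xTg-D vs WT-D, beside 0.10 over all tested genes, and 0.08 beside 0.11 in 3xTg-S vs 3xTg-D. In WT-S vs WT-D it was 0.04 beside 0.07, and these medians are given as descriptions only. The median signed log2 difference was 0.01, 0.05 and 0.00 in these comparisons, with 6, 7 and 3 of the 10 genes above 0.

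**Figure D2:**
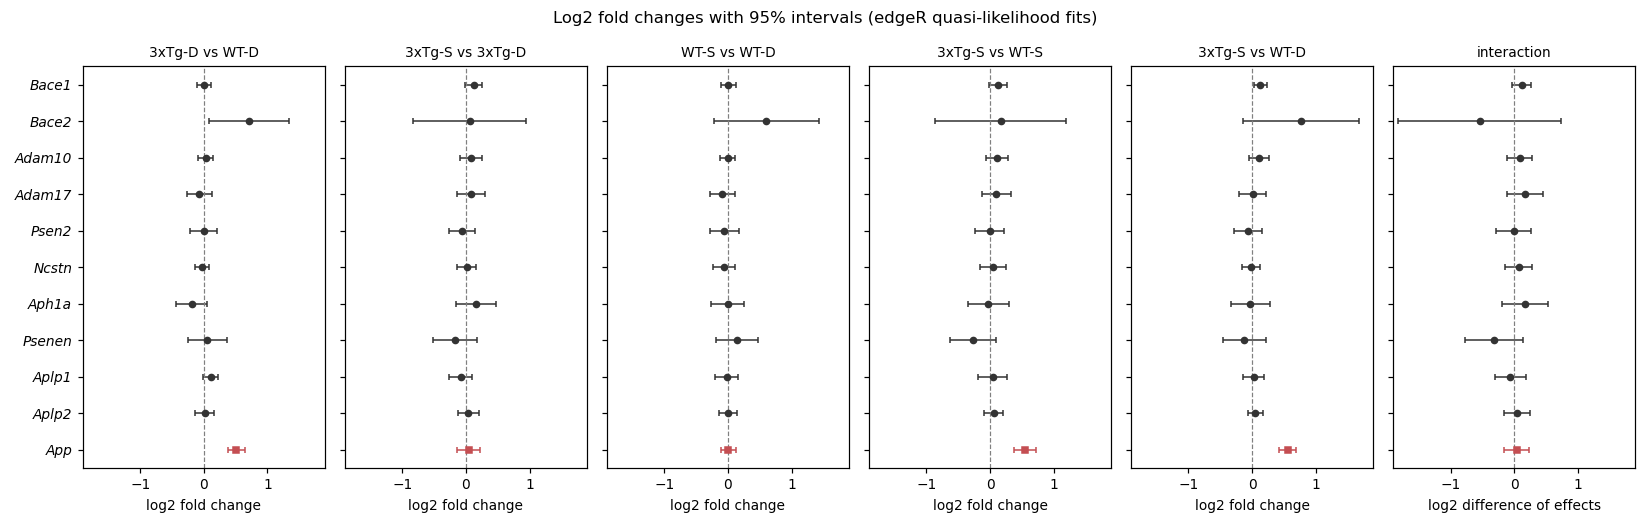
Log2 fold change and 95% interval of each gene in 6 comparisons, with App in red for scale and the difference of the inhibitor effect between genotypes in the last panel. App lies at 0.51 to 0.56 in the comparisons of 3xTg with WT mice, the intervals of Bace2 are the widest, and most other points lie near 0.

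Bace1 encodes the β-secretase that starts the amyloidogenic cut. It stood at 102, 101, 104 and 99.7 CPM in WT-D mice 1 to 4 and at 101, 96.8, 102 and 109 CPM in 3xTg-D mice. With the inhibitor it stood at 98.2, 106, 98.5 and 106 CPM in WT-S mice and at 108, 115, 114 and 109.9 CPM in 3xTg-S mice. The 3 other groups overlapped one another, and all 4 3xTg-S mice lay above all WT-D and all WT-S mice, while 3xTg-D mouse 4 reached into their range.

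The Bace1 levels of 3xTg-D and WT-D differed by 0.01 on the log2 scale (SE 0.05), a fold of 1.00 with a 95% interval of 0.9295 to 1.085. In 3xTg-S mice Bace1 was higher than in WT-D by 0.13 log2 (SE 0.05), a fold of 1.09 with an interval of 1.02 to 1.18, which was not called (edgeR adjusted p = 0.251). Against 3xTg-D the 3xTg-S difference was 0.12 (SE 0.06, edgeR adjusted p = 0.722), and against WT-S it was also 0.12 (SE 0.06, edgeR adjusted p = 0.534). In WT mice the inhibitor difference was 0.01 (SE 0.05), and the inhibitor effect differed between the genotypes by 0.12 (SE 0.07, edgeR adjusted p = 0.788). Of the 10 genes Bace1 was the 1 with no overlap between 3xTg-S and WT-D, and between 3xTg-S and WT-S, where 9.55% and 6.75% of all tested genes did not overlap. No gene of the 10 was free of overlap in 3xTg-S vs 3xTg-D (3.16% of all genes) or in WT-S vs WT-D (1.48%). With the share of reads outside genes as a covariate the 3xTg-S vs WT-D difference was called (0.14, edgeR adjusted p = 0.105), in a fit that called 8.76% of all genes. Without WT-D mouse 4, the mouse with choroid plexus reads, it was 0.10 (edgeR adjusted p = 0.518).

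Bace2 encodes the β-secretase homolog, a minor transcript here read by 28 to 117 counts per mouse. It stood at 2.32, 1.97, 3.10 and 1.43 CPM in WT-D mice and at 2.91, 2.77, 3.18 and 5.61 CPM in 3xTg-D mice. In WT-S mice it stood at 5.49, 1.503, 2.34 and 4.07 CPM, and in 3xTg-S mice at 5.95, 1.34, 5.01 and 2.97 CPM. All 4 groups overlapped, with WT-D mouse 3 above 3xTg-D mice 1 and 2, and the inhibitor groups held both very low and very high mice. The pooled variation between mice of a group was 45.2% of the mean, 3.25 times the 13.9% that read counting alone gives.

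The 3xTg-D group was higher than WT-D in Bace2 by 0.71 log2 (SE 0.28), a fold of 1.63 with a 95% interval of 1.05 to 2.53, which was not called (edgeR adjusted p = 0.330). The difference was 0.41 without 3xTg-D mouse 4 and 0.54 without WT-D mouse 4, with edgeR adjusted p of 0.457 and 0.581. In WT mice the inhibitor difference was 0.60 (SE 0.37, fold interval 0.854 to 2.70), or 0.25 without WT-S mouse 1 and 0.44 without WT-D mouse 4, and in 3xTg mice 0.06 (SE 0.40, fold interval 0.563 to 1.93). With the share of reads outside genes as a covariate the inhibitor difference was 0.71 in WT mice and -0.32 in 3xTg mice, and neither was called. The covariate also turned the 3xTg-S vs WT-S difference from 0.16 to -0.17. Without WT-S mouse 1, a mouse with choroid plexus reads, that difference was 0.52 (edgeR adjusted p = 0.850). The inhibitor effect on Bace2 differed between the genotypes by -0.54 (SE 0.61, edgeR adjusted p = 0.822). For 3xTg-S vs WT-D the Bace2 difference was 0.77 (SE 0.41, edgeR adjusted p = 0.447). Single mice moved it both ways. It was 0.47 without 3xTg-S mouse 1 and 0.59 without 3xTg-S mouse 3 or WT-D mouse 4, and was called in none of these fits. Without 3xTg-S mouse 2, the lowest of all 16 mice, it was 1.04 and was called (edgeR adjusted p = 0.0778, with 9.33% of all genes called).

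**Figure D3:**
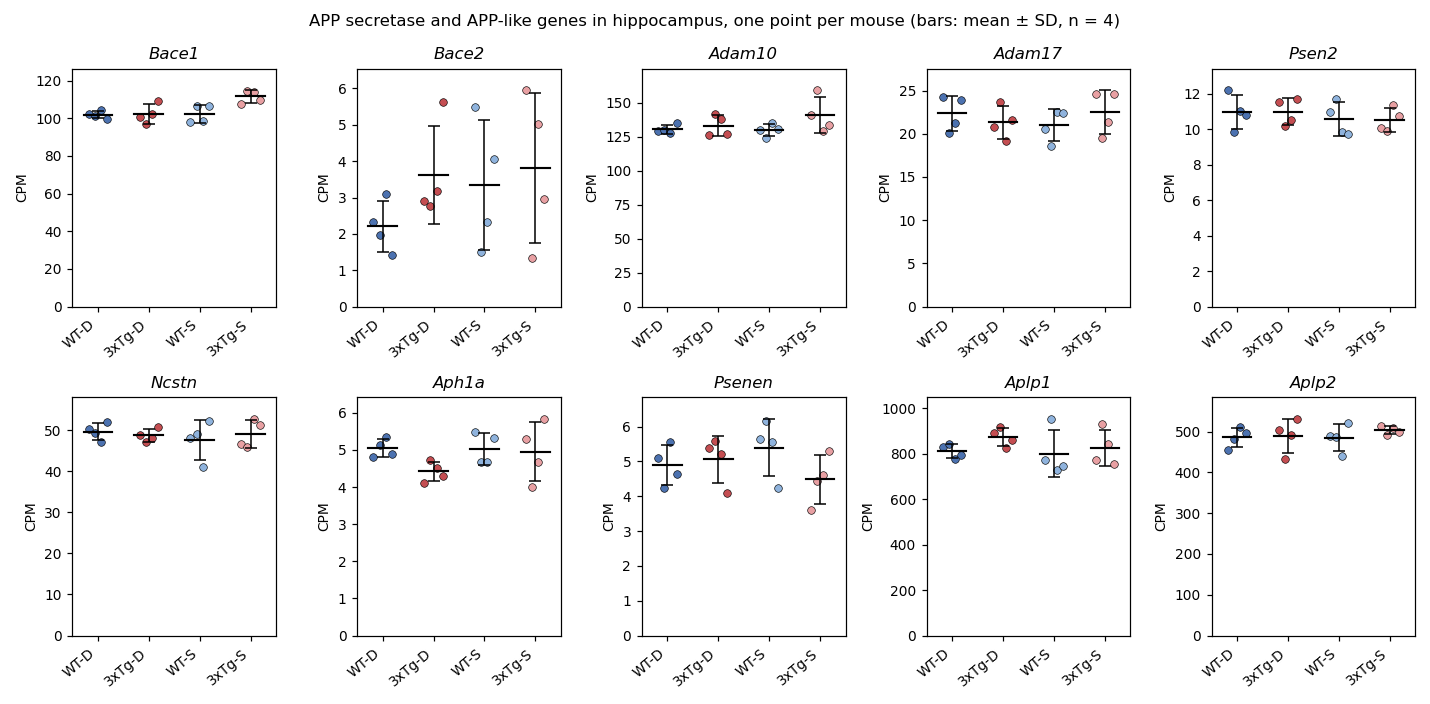
CPM of each of the 10 genes in 4 groups, with 1 point per mouse and bars for the mean ± SD (n = 4), on axes that start at 0. All 3xTg-S mice lie at 108 to 115 CPM for Bace1, the Bace2 points scatter from 1.34 to 5.95 CPM, and the 3xTg-D mice lie below the WT-D mice for Aph1a (4.12 to 4.74 against 4.82 to 5.35 CPM).

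The α-secretase genes were close to level across groups. Adam10, the main α-secretase of neurons, stood at 129, 129.9, 127 and 135 CPM in WT-D mice and at 126, 142, 138 and 127 CPM in 3xTg-D mice. With the inhibitor it stood at 130.2, 124, 135 and 131 CPM in WT-S mice and at 141, 159, 129 and 133 CPM in 3xTg-S mice. The groups overlapped, and 3xTg-S mouse 2 was the highest of the 16. The 3xTg-D vs WT-D difference in Adam10 was 0.03 log2 (SE 0.05, fold interval 0.941 to 1.11) and the 3xTg-S vs 3xTg-D difference was 0.08 (SE 0.08, fold interval 0.936 to 1.19), or 0.00 without 3xTg-S mouse 2 and 0.14 with the share of reads outside genes as a covariate. For 3xTg-S vs WT-D it was 0.11 (SE 0.07, edgeR adjusted p = 0.532), and 0.02 without 3xTg-S mouse 2.

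Adam17, the sheddase of tumour necrosis factor, stood at 20.1 to 24.2 CPM in WT mice given vehicle and 18.6 to 22.5 CPM in those given the inhibitor. In 3xTg mice it stood at 19.2 to 23.7 CPM with vehicle and 19.5 to 24.6 CPM with the inhibitor. All 4 ranges overlapped over most of their length. Its log2 difference was -0.07 in 3xTg-D vs WT-D (SE 0.09, edgeR adjusted p = 0.793), 0.08 in 3xTg-S vs 3xTg-D (SE 0.10) and -0.09 in WT-S vs WT-D (SE 0.09). The ratio of Bace1 to Adam10 reads within a mouse, a simple index of β-secretase to α-secretase transcript, was 0.783 ± 0.0321 in WT and 0.772 ± 0.0776 in 3xTg mice given vehicle, and 0.790 ± 0.0589 and 0.798 ± 0.0702 in those given the inhibitor (SD, n = 4 each). These means differed by less than the spread between mice.

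Of the γ-secretase genes, Psen2 encodes a presenilin, the catalytic subunit. It stood at 12.2, 9.85, 11.1 and 10.8 CPM in WT-D mice and at 11.5, 10.2, 10.5 and 11.7 CPM in 3xTg-D mice. With the inhibitor it stood at 10.99, 11.7, 9.86 and 9.71 CPM in WT-S mice and at 10.1, 9.92, 11.4 and 10.7 CPM in 3xTg-S mice. The groups overlapped throughout, and its log2 differences in the 6 tests lay between -0.06 and 0.00. For 3xTg-D vs WT-D the fold was 0.999 with an interval of 0.862 to 1.16, and mice of a group varied by 7.84%, close to the 6.94% given by counting.

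Ncstn encodes nicastrin, the subunit that takes up the substrate stub. It stood at 50.2, 49.2, 47.0 and 51.9 CPM in WT-D mice and at 48.9, 47.2, 48.0 and 50.8 CPM in 3xTg-D mice. With the inhibitor it stood at 48.2, 49.0, 40.9 and 52.2 CPM in WT-S mice and at 46.6, 45.9, 52.7 and 51.1 CPM in 3xTg-S mice. The groups overlapped, and WT-S mouse 3 was the lowest of the 16. The 3xTg-D vs WT-D difference was -0.03 (SE 0.05, fold interval 0.9085 to 1.06) and the 3xTg-S vs 3xTg-D difference 0.01 (SE 0.07, fold interval 0.909 to 1.12).

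Aph1a encodes an APH1 scaffold subunit. It stood at 4.82, 5.14, 5.35 and 4.90 CPM in WT-D mice and at 4.12, 4.74, 4.51 and 4.31 CPM in 3xTg-D mice. In WT-S mice it stood at 5.49, 4.66, 4.68 and 5.32 CPM and in 3xTg-S mice at 5.30, 4.01, 4.69 and 5.83 CPM. All 3xTg-D mice lay below all WT-D mice, as 3.78% of all tested genes did and 8.17% did in either direction, whereas the inhibitor groups overlapped with both. The difference of 3xTg-D from WT-D was -0.19 log2 (SE 0.11), a fold of 0.876 with an interval of 0.742 to 1.03, and was not called (edgeR adjusted p = 0.517). At 73 to 117 counts per mouse, counting alone gives a variation of 10.3%, as large as the 9.80% seen between mice of a group. The 3xTg-S vs 3xTg-D difference was 0.16 (SE 0.14, edgeR adjusted p = 0.762), or 0.06 without 3xTg-S mouse 4 and 0.05 with the share of reads outside genes as a covariate.

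Psenen encodes PEN-2, the subunit needed for presenilin to mature. It stood at 5.11, 4.23, 5.55 and 4.65 CPM in WT-D mice and at 5.39, 5.58, 5.20 and 4.09 CPM in 3xTg-D mice. In WT-S mice it stood at 5.63, 6.17, 5.55 and 4.23 CPM and in 3xTg-S mice at 3.60, 4.44, 4.62 and 5.29 CPM. The groups overlapped, with 3xTg-S mouse 1 the lowest. The log2 difference was 0.05 in 3xTg-D vs WT-D (SE 0.14), -0.17 in 3xTg-S vs 3xTg-D (SE 0.16) and -0.26 in 3xTg-S vs WT-S (SE 0.16, edgeR adjusted p = 0.619). Leaving Bace2 aside, the 95% fold intervals of the other 9 genes reached from 0.742 to 1.28 in 3xTg-D vs WT-D and from 0.698 to 1.394 in 3xTg-S vs 3xTg-D, so larger differences than these lie outside the intervals.

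Aplp1 and Aplp2 encode the APP-like proteins, which share APP's large ectodomain and its cytoplasmic sorting motif but lack the amyloid-β sequence. Aplp1 stood at 830.0, 841, 776 and 796 CPM in WT-D mice and at 889, 918, 825 and 860.4 CPM in 3xTg-D mice. With the inhibitor it stood at 770.0, 952, 728 and 748 CPM in WT-S mice and at 773, 929.6, 842 and 755 CPM in 3xTg-S mice. The 3xTg-D mice were mostly above the WT-D mice but overlapped with them at 825 to 841 CPM, and the inhibitor groups held both the highest and the lowest mice.

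The 3xTg-D vs WT-D difference in Aplp1 was 0.11 log2 (SE 0.05), a fold of 1.08 with an interval of 0.994 to 1.17 (edgeR adjusted p = 0.440). With the share of reads outside genes as a covariate it was 0.07. The 3xTg-S vs 3xTg-D difference was -0.08 (SE 0.08, edgeR adjusted p = 0.783), or -0.16 without 3xTg-S mouse 2 (edgeR adjusted p = 0.236) and -0.02 with the covariate. Between mice of a group Aplp1 varied by 8.57%, 10.8 times the 0.793% that counting gives. Oligodendrocyte markers (Mbp, Mog and Mobp) moved with the comparison of 3xTg-D and WT-D. Their summed level was 2468 to 2970 CPM in WT-D and 3247 to 4241 CPM in 3xTg-D, and 2 of the 3 (all but Mog) were called higher. With the inhibitor a mouse of each group stood apart in this sum. WT-S mouse 4 was at 1961 CPM and the others of its group at 2782 to 3117 CPM. 3xTg-S mouse 2 was at 4204 CPM and the others of its group at 2456 to 2776 CPM. The part of these cells in the Aplp1 value was not tested.

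Aplp2 stood at 455, 482, 511 and 496 CPM in WT-D mice and at 505, 433, 491 and 530.1 CPM in 3xTg-D mice. With the inhibitor it stood at 490.2, 488, 439.9 and 520.4 CPM in WT-S mice and at 514, 493, 509 and 499.9 CPM in 3xTg-S mice. All groups overlapped, and the 3xTg-S mice lay closest together. The difference was 0.01 in 3xTg-D vs WT-D (SE 0.07, fold interval 0.908 to 1.12) and 0.04 in 3xTg-S vs 3xTg-D (SE 0.07, fold interval 0.921 to 1.149).

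App, the substrate of these enzymes and not 1 of the 10 genes, is given for scale. The 3xTg mice carry a human APP transgene, and its part in the App count was not tested. It stood at 1617 ± 36.1 CPM in WT and 2307 ± 159 CPM in 3xTg mice given vehicle, and at 1624 ± 88.9 and 2376 ± 173 CPM in those given the inhibitor (SD, n = 4 each). It was called higher in 3xTg-D vs WT-D by 0.51 log2 (SE 0.06, edgeR adjusted p = 0.00100) and in 3xTg-S vs WT-S by 0.55 (SE 0.08, edgeR adjusted p = 0.00607). The read ratio of App to Aplp2 within a mouse was 3.33 ± 0.190 in WT-D and 4.72 ± 0.163 in 3xTg-D, and 3.35 ± 0.133 in WT-S and 4.72 ± 0.425 in 3xTg-S (SD, n = 4 each). All 8 3xTg mice (4.35 to 5.33) exceeded all 8 WT mice (3.09 to 3.51). The ratio of App to Aplp1 was 1.995 ± 0.0577 in WT and 2.65 ± 0.289 in 3xTg mice given vehicle, and 2.05 ± 0.182 and 2.89 ± 0.123 in those given the inhibitor.

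**Figure D4:**
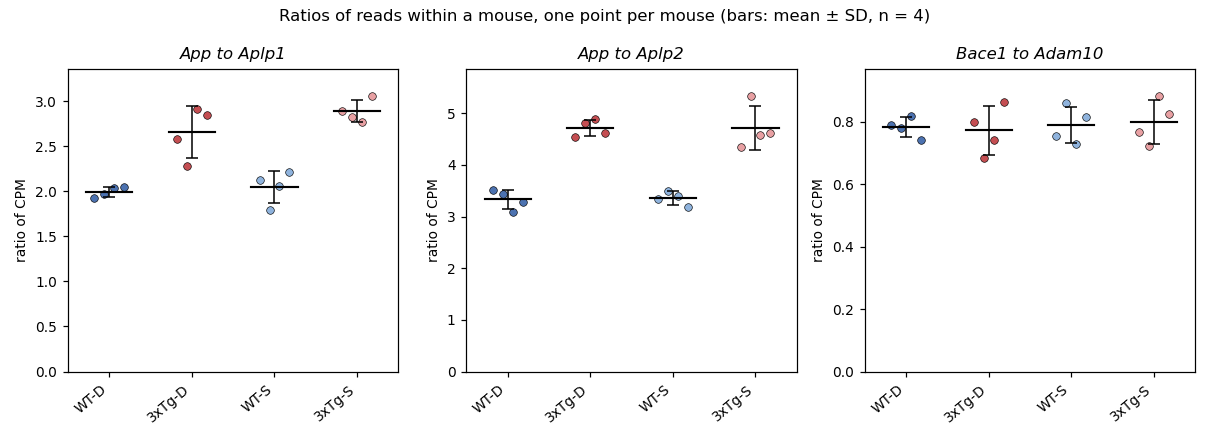
Ratio of CPM within each mouse for App to Aplp1, App to Aplp2 and Bace1 to Adam10 in 4 groups, with 1 point per mouse and bars for the mean ± SD (n = 4). The ratios of App to Aplp2 of the 3xTg mice (4.35 to 5.33) lie above those of the WT mice (3.09 to 3.51), and the ratios of Bace1 to Adam10 (0.683 to 0.882) overlap in all groups.

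Of the genes around the secretases, 96 were listed by role, and 93 were tested (Tspan10, Tnf and Areg were too low). In 3xTg-D vs WT-D 4 were called higher and 1 lower (5.38% of the 93, beside 4.86% of all genes). In 3xTg-S vs WT-S 3 were called higher (3.23%, beside 4.3%), and in 3xTg-S vs WT-D 2 were called higher and 1 lower (3.23%, beside 5.84%). None was called in either comparison of inhibitor with vehicle, or in the difference between genotypes. These shares were near or below those of all genes. By role, the calls in 3xTg-D vs WT-D fell on 1 of 4 genes of the secretase paralogs and substrate (App), 2 of 12 regulators of ADAM10 and ADAM17, 1 of 7 γ-secretase modulators and 1 of 14 Notch pathway genes. In the same comparison 0 of 11 genes of BACE1 processing and sorting, 0 of 13 BACE1 substrates, 0 of 11 substrates of ADAM10 and ADAM17, 0 of 12 APP family adaptors and 0 of 10 amyloid-degrading proteases were called. The median log2 difference of the 93 genes was 0.01, beside 0.00 over all tested genes.

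Among regulators of the α-secretases, Sfrp1, a secreted Wnt antagonist known to inhibit ADAM10, was called higher in 3xTg mice under both treatments. It stood at 5.49, 6.39, 8.31 and 7.97 CPM in WT-D mice and at 10.0, 11.3, 12.4 and 11.8 CPM in 3xTg-D mice. In WT-S mice it stood at 5.35, 4.51, 4.63 and 6.84 CPM and in 3xTg-S mice at 12.2, 9.06, 8.03 and 9.07 CPM. The 3xTg mice lay above the WT mice of the same treatment without overlap. Of all tested genes, 8.17% did not overlap with vehicle and 6.75% with the inhibitor, counting both directions. Sfrp1 kept its call in every alternative and with each mouse left out. In those fits its edgeR or DESeq2 adjusted p reached 0.122 with vehicle and 0.132 with the inhibitor. In the main fit the difference was 0.70 log2 (SE 0.14, edgeR adjusted p = 0.0359) with vehicle and 0.85 (SE 0.17, edgeR adjusted p = 0.0395) with the inhibitor, and the inhibitor effect differed between the genotypes by 0.15 (SE 0.23, edgeR adjusted p = 0.867). Of the astrocyte markers Gfap, Aqp4, Aldh1l1 and Slc1a3, which summed to 1505 to 1731 CPM in WT-D and 1605 to 2641 CPM in 3xTg-D, 0 of 4 were called between these groups by edgeR and 2 had an unadjusted p under 0.05. Of the 16475 tested genes 2077 had a p under 0.05 in this comparison. The part of astrocytes in the Sfrp1 value was not tested.

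The other called genes of the lists had an adjusted p over 0.05, and each lost its call without some mice. In 3xTg-D vs WT-D Tspan5, a tetraspanin that escorts ADAM10, was lower by -0.21 log2 (edgeR adjusted p = 0.100) and was not called without WT-D mouse 2 or 3xTg-D mouse 1 (-0.24 to -0.19 with a mouse left out), or with all 16 mice in 1 fit. Arrb1, β-arrestin 1, which binds γ-secretase, was higher by 0.15 (edgeR adjusted p = 0.178) and, of the 8 fits with a mouse left out, was called in the 1 without 3xTg-D mouse 1 (0.13 to 0.18 over the 8). With all mice its call was lost under median-ratio scaling, no filter, all 16 mice in 1 fit, the replicate block and the covariate for reads outside genes. Hey2, a Notch target, was higher by 0.38 (edgeR adjusted p = 0.156) and was called in the fits without 3xTg-D mouse 1 or 4 but in none of the other 6 (0.30 to 0.40 over the 8). It was not called by DESeq2, nor by edgeR with no filter, the replicate block or the covariate.

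In 3xTg-S vs WT-S Cntn2, an adhesion protein cut by BACE1, was higher by 0.34 (edgeR adjusted p = 0.146) and was not called without WT-S mouse 3 or 3xTg-S mouse 3 or 4 (0.24 to 0.38 with a mouse left out). In 3xTg-S vs WT-D Gga3, an adaptor that sorts BACE1 to lysosomes, was higher by 0.25 (edgeR adjusted p = 0.137) and was called in the fits without WT-D mouse 4 or 3xTg-S mouse 2 but in none of the other 6 (0.20 to 0.28 over the 8), and not with all 16 mice in 1 fit. Frmd8, a partner of ADAM17's iRhom carriers, was lower by -0.39 (edgeR adjusted p = 0.156) and was called in the fits without WT-D mouse 2 or 3xTg-S mouse 2 but in none of the other 6 (-0.48 to -0.31 over the 8), and not with the replicate block.

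The 10 genes were also compared mouse by mouse after the mean of each group was taken off. Across the 16 mice Pearson's r between pairs of the 10 genes ran from -0.66 (Adam10 and Psen2) to 0.62 (Bace1 and Aplp2). Within each mouse the 10 genes were read from the same library. The genes named next were picked for the highest r among all 16475 tested genes. Their r is therefore high by selection and is a description only. The tested genes most like Bace1 were Slc25a22 (r = 0.90), Cyfip2 (0.89) and Chrnb2 (0.88), and those most like Bace2 were Vgll3 (0.94), AW551984 (0.94) and Scn7a (0.92). For Adam10 they were Ccdc148 (0.95), Ccng1 and Zfp808 (0.89 each), and for Adam17 Irf9 (0.91), Gm44123 (0.90) and Cybc1 (0.89). For Psen2 they were Mettl8 (0.82), Itgb4 (0.81) and Crybg2 (0.80), and for Ncstn Gga2 (0.94), Sox12 (0.92) and BC051142 (0.91). Aph1a was most like Arhgef5, Reck and Acer3 (0.93 each), and Psenen most like Xrra1 (0.89). Aplp1 was most like Rrp7a (0.97), Nrgn (0.95) and Pik3r2 (0.94), and Aplp2 most like Smc1a (0.96), D230025D16Rik (0.94) and Erc1 (0.90).

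Some of these genes varied with a property of the library. The share of uniquely mapped reads outside genes was 7.82% to 15.1%, and r with it was -0.74 for Aplp1, 0.69 for Aph1a, 0.55 for Adam17, 0.54 for Bace2 and -0.54 for Adam10, but -0.04 for Bace1. With the summed oligodendrocyte markers r was 0.65 for Aplp1, -0.62 for Aph1a and -0.55 for Bace2. These are descriptions over 16 mice. Fits with the share of reads outside genes as a covariate changed 1 call of the 10 genes, that of Bace1 given above. They moved the differences of Bace2, Adam10, Aph1a and Aplp1 as given beside them. Over all alternatives with all mice, Adam17 and Aplp2 also moved, with no call. Adam17 ran from 0.01 to 0.08 log2 in 3xTg-S vs 3xTg-D and from 0.06 to 0.17 in the difference between genotypes. Aplp2 ran from 0.01 to 0.10 in 3xTg-D vs WT-D.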

How the data were processed

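Per the labels and the study's methods, the authors made libraries of whole-hippocampus RNA with an mRNA kit and molecular indexes, sequenced single-end reads, trimmed them with Trimmomatic 0.35, aligned them to GRCm38 with STAR 2.5.1b and counted reads per gene of GENCODE M23. The deposited values are raw counts of 55335 genes in 16 mice. How strand and molecular indexes entered the counting is not given in the sources used here. The 4 summary lines of the table, among them reads outside genes (7.82% to 15.1% of uniquely mapped reads per mouse) and ambiguous reads (0.973% to 1.13%), were left out of library sizes. The protocol text of the samples names another SCD inhibitor, whereas titles and treatment labels name the Cayman compound, which was followed here.

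Genes were filtered with edgeR 4.0.16 (filterByExpr, minimum count 10, R 4.3.3), which kept 16475, and scaled by TMM over all 16 mice. Each comparison was fitted on its 2 groups by the two-sided quasi-likelihood test of edgeR, and the difference between genotypes on all 4. Genes were called at p of 0.01 or less, with Benjamini-Hochberg adjustment over all tested genes beside it. The study used DESeq2 with the same level, and DESeq2 1.42.0 (likelihood ratio test) was run as an alternative. CPM and RPKM used TMM library sizes and, for RPKM, the union of exons of an earlier GENCODE release of the same build, in which the 10 genes have the same spans. The main fit, the replicate block, all mice in 1 fit, the covariate fit and DESeq2 were also run on simulated counts. Those counts held no effect of replicate number or of reads outside genes. Alternatives were DESeq2, median-ratio scaling, other filters, all mice in 1 fit, a replicate block, a covariate for reads outside genes, an adjusted threshold, another gene length and each mouse left out.

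Replicates of a group differed by more than sampling noise (chi-square per degree of freedom 3.90 to 47.2 over pairs), so none was counted as a repeat. The labels do not say whether mice of a group shared a litter or cage, so p-values measure the spread between these mice. Mouse numbers are shared by the groups in the titles. In WT-S vs WT-D every same-numbered pair passed an r of 0.1 in its deviations across genes (0.11 to 0.34). A pair of mice with different numbers also reached 0.14. The mean of same-numbered pairs was 0.217, beside 0.213 in 3xTg-S vs 3xTg-D and 0.241 in 3xTg-S vs WT-S. These values do not show whether mice were paired, so the main fits left the number out in every comparison. The differences, SE and adjusted p printed for WT-S vs WT-D are from the fit without the replicate block. The block changed no call of the 10 genes there.

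The 10 genes, the role lists and the marker lists were chosen with earlier results of these data known. The genes named were the 10, each listed gene with p of 0.01 or less in the comparison described, App and Thy1, and up to 3 tested genes with the highest correlation to each of the 10. Some genes that these rules or lists would name, and results that need them, are not reported here.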

Additional observations from a re-analysis of the deposited data

Results flagged for a closer look

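Bace2 in 3xTg-D mouse 4, at 5.61 CPM, stood apart from the other 3 mice of its group, at 2.77 to 3.18 CPM. Its gap to the nearest mouse, divided by the range of the group, exceeded Dixon's 95% critical value for 4 samples. This was 1 of 40 combinations of gene and group examined, of which chance sets apart about 1 in 20.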

How the results depend on the processing

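The count of 0 of the 10 genes called was kept in all 6 comparisons under every alternative with all mice except 1: with the share of reads outside genes as a covariate, 1 gene (Bace1) was called in 3xTg-S vs WT-D. With each mouse left out in turn the count for 3xTg-S vs WT-D ranged from 0 to 1, the 1 being Bace2 without 3xTg-S mouse 2, and was 0 for the other comparisons. Of 470 values of single genes with all mice, which include the adjusted threshold applied to the main fit, 469 stayed on the same side. So did 559 of 560 with a mouse left out, and the smallest edgeR or DESeq2 adjusted p was 0.0778. The cause was not tested.

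With the replicate number as a block, 0 of the 10 genes were called in every comparison, the lowest unadjusted p being that of Bace1 in 3xTg-S vs WT-D (edgeR adjusted p = 0.248). Over all genes the replicate block called 1133 in place of 149 in 3xTg-S vs 3xTg-D, 116 in place of 33 in WT-S vs WT-D, 1394 in place of 709 in 3xTg-S vs WT-S and 624 in place of 98 for the difference between genotypes. Same-numbered mice correlated in their deviations by 0.016 to 0.391 in 3xTg-S vs 3xTg-D, -0.101 to 0.496 in 3xTg-S vs WT-S, 0.062 to 0.257 in 3xTg-S vs WT-D and -0.096 to 0.186 in 3xTg-D vs WT-D. In these comparisons not every pair passed 0.1. In all comparisons, WT-S vs WT-D among them, the block rests on a shared number only. Bace2, Aph1a and Psenen had the fewest reads, at 28 to 133 counts per mouse. The spread between mice was near that of counting for Aph1a and Psen2 (0.947 and 1.13 times) but 3.25 times it for Bace2.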
